A study of Mus musculus with 6 samples.

Results

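Tubulin isotypes are the products of separate genes that encode the alpha and the beta subunit of microtubules. The 10 genes followed here were the alpha-tubulin genes Tuba1a, Tuba1b, Tuba1c and Tuba4a and the beta-tubulin genes Tubb2a, Tubb2b, Tubb3, Tubb4a, Tubb4b and Tubb5. They were chosen by their symbols from a table of 55335 mouse genes, in which each had 1 row. All 10 passed the filter on low values (a mean of 1 FPKM or more in either virus group), as did 12792 genes in all, and entered the tests.

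The samples were 6 RNA-seq libraries from primary cultures of GABAergic interneurons, the inhibitory neurons of the forebrain, started from wild-type C57BL/6 mouse brain at embryonic day 14.5. The source field of the labels calls the cells neural progenitor cells. Every culture was infected for 12 hours with adeno-associated virus (AAV), 3 with a virus carrying a scrambled hairpin (AAV-scramble) and 3 with a virus carrying a hairpin against Brpf1 (AAV-shbrpf1), which encodes a scaffold of histone acetyltransferase complexes. The labels number the libraries 1 to 3 in each group, leave the meaning of the number unsaid, and do not give the time to harvest. Whether the 3 libraries of a virus group were grown from different animals or in different cultures is not stated, so each p-value refers to the spread among these libraries alone, which may be technical.

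Alpha- and beta-tubulin join as a heterodimer, and heterodimers assemble end to end into the microtubules that carry transport in axons and dendrites and form the mitotic spindle. The isotypes of a class share most of their sequence and differ mainly in the acidic tail at the carboxyl terminus, which lies on the microtubule surface, binds motors and microtubule-associated proteins, and receives glutamate chains. Developing neurons are known for high Tuba1a, Tubb2a, Tubb2b and Tubb3, and the cell lowers the stability of tubulin messages when free tubulin dimer accumulates.

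The coding sequences of these tails are shown for Tuba4a and the 6 beta members because they are where the isotypes differ most, and because the likeness of the remaining sequence bears on every level below. Each line holds the last 60 coding bases before the stop codon, from the GENCODE M21 transcripts of the GRCm38 build, which in these 7 genes lie in exon 4 of 4. Sequences run 5′ to 3′ on the coding strand, and capitals mark the in-frame codons GAA and GAG for glutamate.
Tuba4a, chr1:75215625-75215684, minus strand: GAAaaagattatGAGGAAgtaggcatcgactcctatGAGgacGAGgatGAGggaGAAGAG
Tubb2a, chr13:34074471-34074530, minus strand: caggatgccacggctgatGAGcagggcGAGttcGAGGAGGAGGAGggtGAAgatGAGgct
Tubb2b, chr13:34127474-34127533, minus strand: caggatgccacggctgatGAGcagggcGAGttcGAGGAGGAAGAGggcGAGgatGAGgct
Tubb3, chr8:123421620-123421679, plus strand: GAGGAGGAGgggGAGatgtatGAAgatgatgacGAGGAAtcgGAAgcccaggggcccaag
Tubb4a, chr17:57080693-57080752, minus strand: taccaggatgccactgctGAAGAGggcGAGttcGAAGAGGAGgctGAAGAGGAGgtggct
Tubb4b, chr2:25222311-25222370, minus strand: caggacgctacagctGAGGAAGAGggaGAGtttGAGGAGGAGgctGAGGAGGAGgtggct
Tubb5, chr17:35834985-35835044, minus strand: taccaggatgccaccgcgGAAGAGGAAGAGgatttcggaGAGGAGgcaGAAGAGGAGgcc

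Glutamate codons filled 10 of these 20 codons in Tubb4b, 9 in Tubb4a and Tubb5, and 8 in Tuba4a, Tubb2a, Tubb2b and Tubb3. The Tuba4a sequence ends in the glutamate codon gag, and a tyrosine at the end of alpha-tubulin can be added by the ligase Ttl. Tubb2a and Tubb2b were identical at 95% of these 60 bases. Tubb3 stood apart from the other beta tails, with 41.7% to 49.2% identity, against 81.3% to 83.4% over the whole coding sequence. Its coding sequence has 450 codons, against 444 or 445 in the other beta members. The 60-base windows, counted back from the stop codon, therefore do not start at matching positions. How much this lowers the tail identity of Tubb3 was not tested. Over the whole coding sequence Tuba1a was identical to Tuba1b at 98.3% and to Tuba1c at 97.1% of positions.

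That likeness limits how well reads can be placed. Of the 50-base stretches of each member's transcripts, 64.3% in Tuba1a, 82.2% in Tuba1b and 61.0% in Tuba1c also occurred in a gene at another locus. The shares were 49.6% in Tubb2a, 39.3% in Tubb2b and 50.9% in Tubb4b, whose pseudogene Tubb4b-ps1 alone held 43.6%. Tuba4a (1.1%), Tubb3 (0.0%), Tubb4a (0.2%) and Tubb5 (0.1%) shared almost none. The sources used here do not say how the authors' counting divided shared reads, so the levels and shares of Tuba1a, Tuba1b, Tuba1c, Tubb2a, Tubb2b and Tubb4b are uncertain to that extent, and so are the class shares of the 4 low-sharing members, whose class sums hold the others. The levels of those 4 are not limited in this way.

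Values are FPKM, fragments per kilobase of transcript scaled to the mapped fragments of the library, so that levels can be compared between genes per length. The steps between low values gave a depth of 13.1 M to 21.1 M (mega) fragments per library, and counting error was at most 3.89% for the lowest member, Tuba4a, and 0.442% for Tuba1a. Brpf1 itself was listed at 3.29, 5.45 and 4.84 FPKM in AAV-scramble libraries 1 to 3 and at 3.13, 4.58 and 3.785 FPKM in AAV-shbrpf1 libraries 1 to 3. The groups overlapped, and the log2 difference of -0.18 ± 0.26 (SE, n = 3 per group) had an adjusted p of 1 in limma. Between same-numbered libraries Brpf1 was lower with AAV-shbrpf1 in 3 of 3 pairs (differences of -4.88%, -16.0% and -21.8%), and with the library number held as a block the unadjusted limma p was 0.127 and the adjusted p 0.9997. The lower level of the targeted message thus ran in the direction of the label and did not pass the test, and groups below are named as labelled. All 6 GABAergic markers were at 1 FPKM or more in every library, and all 5 glutamatergic and all 6 microglial markers were below 1 FPKM in every library. Markers of other glia were present too. Astrocyte markers summed to 182.5 to 311 FPKM and oligodendrocyte markers to 124 to 290 FPKM, beside 309 to 421 FPKM for the GABAergic markers. Vascular and mural markers summed to between 25.7 and 28.0 FPKM for number 1, against 1.70 to 2.84 FPKM in the other 4 libraries. Most of the sum for number 1 was Acta2 and Tagln, with means of 11.5 and 13.0 FPKM. The markers Pecam1, Cldn5, Cdh5, Kdr and Rgs5 of this list were below 1 FPKM in every library.

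Tuba1a, the main alpha-tubulin of developing neurons, was the most abundant member. Its gene lies on the minus strand of chr15:98949837-98953703 (ENSMUSG00000072235). It was at 1989, 3294 and 3146 FPKM in AAV-scramble libraries 1 to 3 and at 2016, 3591 and 2721 FPKM in AAV-shbrpf1 libraries 1 to 3. The 2 libraries numbered 1 were the lowest, and the virus groups overlapped. Among protein-coding genes Tuba1a ranked 13, 2 and 3 in the AAV-scramble libraries and 13, 1 and 3 in the AAV-shbrpf1 libraries.

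Tuba1b, a broadly expressed alpha-tubulin, and Tuba1c, its close relative, lie in the same cluster of chromosome 15, at chr15:98931425-98934565 (ENSMUSG00000023004) and chr15:99029891-99038110 (ENSMUSG00000043091). Tuba1b was at 287, 449.7 and 424 FPKM in AAV-scramble libraries 1 to 3, beside 301, 496 and 364.5 FPKM in AAV-shbrpf1 libraries 1 to 3. Tuba1c was at 120.5, 169.8 and 164 FPKM in AAV-scramble libraries 1 to 3, beside 116, 209.5 and 149 FPKM in AAV-shbrpf1 libraries 1 to 3. Both followed Tuba1a in having their lowest values in the libraries numbered 1 and their highest in AAV-shbrpf1 library 2. GENCODE M21 places 2 further gene models over this cluster, Gm49450 across Tuba1a and Tuba1b and Gm41396 across Tuba1b. Neither symbol is listed among the deposited genes, so they were not analysed here.

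Tuba4a, the alpha-tubulin whose coding sequence ends in a glutamate codon, was the least abundant member. It lies on the minus strand of chr1:75214228-75219865 (ENSMUSG00000026202) and overlaps Stk16 on the other strand, which was at 5.31 to 7.345 FPKM. The sources used here do not say whether the counting used strand. Tuba4a was at 16.3, 21.7 and 16.9 FPKM in AAV-scramble libraries 1 to 3, beside 17.3, 21.8 and 14.7 FPKM in AAV-shbrpf1 libraries 1 to 3. Here the libraries numbered 2 were the highest and those numbered 1 and 3 were mixed.

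Tubb2b and Tubb2a, neighbouring genes on chromosome 13 that encode nearly identical neuronal beta-tubulins, had the highest mean levels among beta members. Tubb2b (chr13:34126748-34130466, minus strand, ENSMUSG00000045136) was at 781, 815 and 1069 FPKM in AAV-scramble libraries 1 to 3, beside 826, 841 and 936 FPKM in AAV-shbrpf1 libraries 1 to 3. Tubb2a (chr13:34074274-34078007, minus strand, ENSMUSG00000058672) was at 527.5, 573 and 565 FPKM in AAV-scramble libraries 1 to 3, beside 569, 608 and 522.5 FPKM in AAV-shbrpf1 libraries 1 to 3. These were the steadiest members: the highest library exceeded the lowest 1.16-fold for Tubb2a and 1.37-fold for Tubb2b, against 2.90-fold for Tubb4a.

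Tubb3, the beta-tubulin used as a marker of neurons, lies on the plus strand of chr8:123411424-123422015 (ENSMUSG00000062380). It overlaps Gm20388 on the same strand, which was listed at 0 FPKM in every library and was left out of the count of shared stretches. Tubb3 was at 329, 642 and 618 FPKM in AAV-scramble libraries 1 to 3, beside 396, 669.9 and 518.5 FPKM in AAV-shbrpf1 libraries 1 to 3. Tubb5, which is common in dividing as well as postmitotic cells, lies on the minus strand of chr17:35833921-35838306 (ENSMUSG00000001525). It was at 245, 498 and 489.6 FPKM in AAV-scramble libraries 1 to 3, beside 273, 489 and 389 FPKM in AAV-shbrpf1 libraries 1 to 3. In both genes the 2 libraries numbered 1 lay below the other 4, and the highest library exceeded the lowest 2.04-fold.

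Tubb4a, a beta-tubulin of brain that is prominent in oligodendrocytes and in maturing neurons, varied most. The gene lies on the minus strand of chr17:57080066-57087782 (ENSMUSG00000062591), and its values were 115.5, 335 and 196 FPKM in AAV-scramble libraries 1 to 3, beside 120.5, 317 and 177 FPKM in AAV-shbrpf1 libraries 1 to 3. The 3 numbers were apart, with 2 highest, 3 between and 1 lowest in each virus group. Tubb4b, a beta-tubulin known from cilia and many tissues (chr2:25222160-25224702, minus strand, ENSMUSG00000036752), was at 61.4, 91.3 and 89.9 FPKM in AAV-scramble libraries 1 to 3, beside 69.6, 96.9 and 75.7 FPKM in AAV-shbrpf1 libraries 1 to 3. Its pseudogene Tubb4b-ps1 was listed at 1.42 to 2.40 FPKM.

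Ordered by the mean over 6 libraries, Tuba1a (2793 FPKM) stood above Tubb2b (878 FPKM), and Tubb2b above Tubb2a (561 FPKM), with ranges that did not overlap. Tubb2a and Tubb3 (529 FPKM) did not differ beyond their spread, since Tubb2a was higher in 3 of 6 libraries. The same held for Tubb5 (397 FPKM) and Tuba1b (387 FPKM), with Tubb5 higher in 3 of 6. Tubb3 exceeded Tubb5 in 6 of 6 libraries although their ranges overlapped, and Tuba1b exceeded Tubb4a (210.2 FPKM) in 6 of 6. Tubb4a exceeded Tuba1c (155 FPKM) in 5 of 6, and below these the ranges of Tuba1c, Tubb4b (80.8 FPKM) and Tuba4a (18.1 FPKM) did not overlap.

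**Figure D1:**
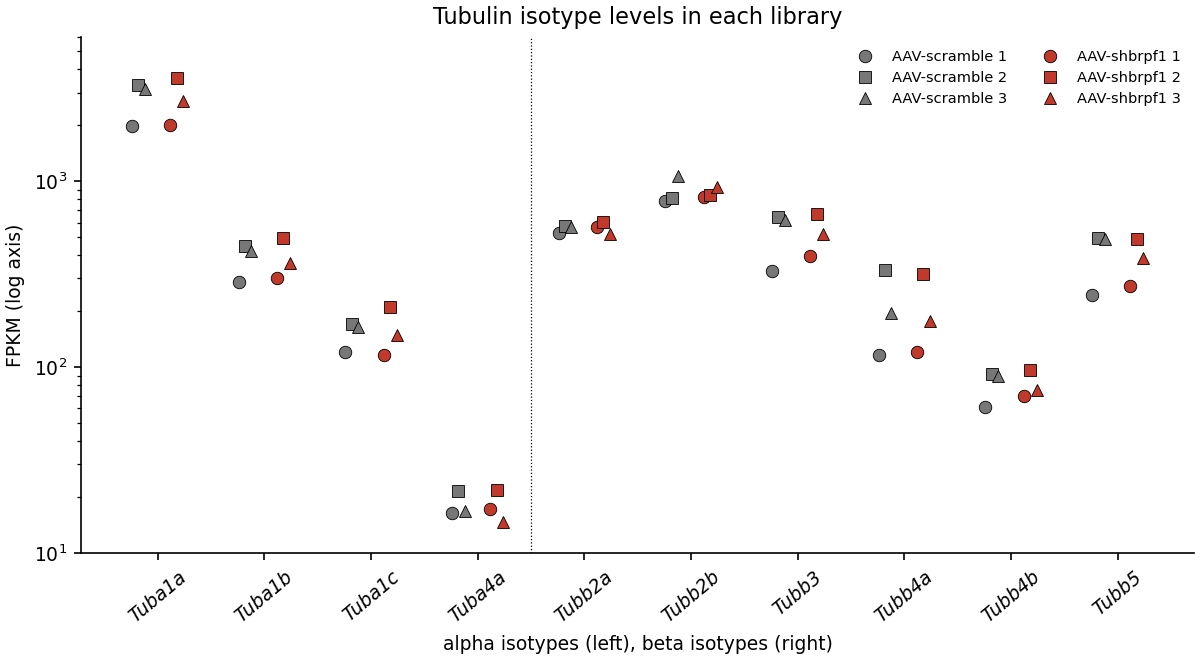
FPKM of the 10 tubulin genes on a log axis, 1 point per library with the virus group and the library number marked. Tuba1a lies between 1989 and 3591 FPKM, Tuba4a between 14.7 and 21.8 FPKM, and in 7 of the 10 genes both libraries numbered 1 lie below the other 4.

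Together the 10 genes made up 1.49% to 2.37% of all FPKM in a library. The 4 alpha members summed to 2412, 3936 and 3751 FPKM in AAV-scramble libraries 1 to 3, beside 2451, 4318 and 3249 FPKM in AAV-shbrpf1 libraries 1 to 3. The 6 beta members summed to 2059, 2954 and 3027 FPKM and to 2253, 3021 and 2619 FPKM in the same order. The alpha sum exceeded the beta sum in every library, with a ratio from 1.09 (AAV-shbrpf1 library 1) to 1.43 (AAV-shbrpf1 library 2).

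Within the alpha class, Tuba1a took 82.4%, 83.7% and 83.9% of the FPKM with AAV-scramble and 82.3%, 83.2% and 83.8% with AAV-shbrpf1. Tuba1b took 11.2% to 12.3% and Tuba1c 4.31% to 4.99% over the 6 libraries. Tuba4a, the member whose tail ends in gag, took 0.450% to 0.706%. The make-up of the alpha class thus moved by little: the mean Tuba1a share of the 3 library numbers spanned 1.46 percentage points.

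The beta class was spread over more isotypes and varied more between libraries. Tubb2b took 37.9%, 27.6% and 35.3% of beta FPKM with AAV-scramble and 36.7%, 27.8% and 35.75% with AAV-shbrpf1. Tubb2a took 25.6%, 19.4% and 18.7% with AAV-scramble and 25.2%, 20.1% and 19.95% with AAV-shbrpf1. Tubb3 took 15.96%, 21.7% and 20.4% with AAV-scramble and 17.6%, 22.2% and 19.8% with AAV-shbrpf1. In the libraries numbered 1 the Tubb2a and Tubb2b shares were at their highest and the Tubb3 and Tubb5 shares at their lowest. Tubb5 took 11.9%, 16.9% and 16.2% with AAV-scramble and 12.1%, 16.2% and 14.85% with AAV-shbrpf1. Tubb4a took 5.61%, 11.3% and 6.47% with AAV-scramble and 5.35%, 10.5% and 6.76% with AAV-shbrpf1, so that its share peaked in the libraries numbered 2 in both groups. Tubb4b held 2.89% to 3.21% in all 6.

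**Figure D2:**
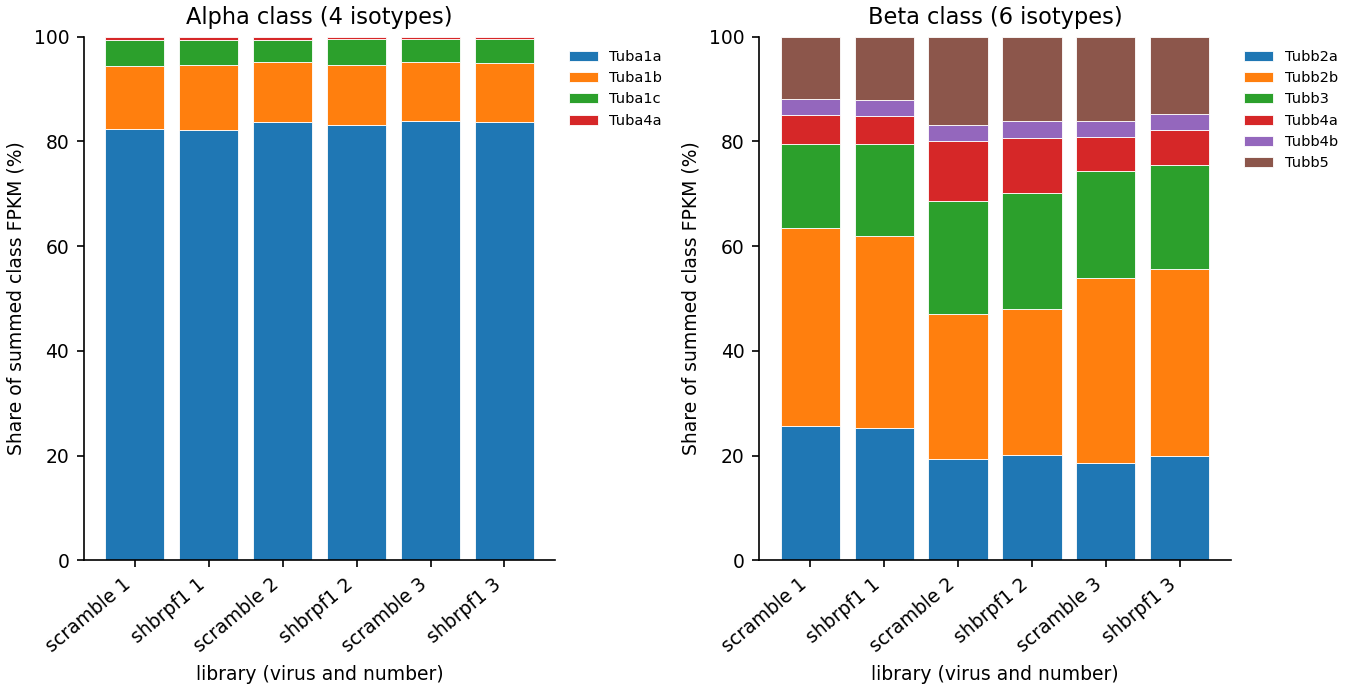
Share of each isotype in the summed FPKM of its class (percent), alpha on one panel and beta on the other, 1 bar per library. Tuba1a fills 82.3% to 83.9% of the alpha bars, and the beta bars of the libraries numbered 1 hold more Tubb2a and less Tubb5 than the other 4.

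The comparison of the viruses asks whether the isotype levels or shares differed between AAV-shbrpf1 and AAV-scramble, and no difference larger than the spread between libraries was found. The log2 differences in FPKM + 1, AAV-shbrpf1 minus AAV-scramble, ran from -0.07 (Tubb5) to 0.04 (Tuba1c), with a median of -0.01 over the 10 members and of -0.02 over all genes tested. Their standard errors (n = 3 per group) were 0.25 to 0.50, so each difference was smaller than its error. In limma with Benjamini-Hochberg adjustment over 12792 genes, 0 of 10 members were called at an adjusted p under 0.05, beside 0.0% of all genes. No member reached an unadjusted p under 0.05, and 23 of all genes did. The groups overlapped for all 10 members, where 1.07% of all genes had groups that did not overlap.

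Same-numbered libraries deviated together from their group means, so a second fit in limma held the library number as a block, which compares the viruses within numbers. It called 0.0% of genes and no member, with 280 genes and again no member at an unadjusted p under 0.05. The lowest unadjusted member p in this limma fit was 0.573, for Tubb4a. The block narrowed the intervals. The 95% interval of the Tubb4a log2 difference went from -1.23 to 1.12 without it to -0.28 to 0.17 with it. For Tuba1a the interval with the block was -0.44 to 0.40, or 0.7375-fold to 1.32-fold on the FPKM + 1 scale, and for Tubb3 it was 0.806-fold to 1.285-fold. All 10 intervals stayed within 0.5 on the log2 scale on either side of 0. Changes inside those intervals are not excluded by these libraries, and the size of change that the tests could detect was not estimated for these genes.

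Pair by pair, the AAV-shbrpf1 library was higher for 9 of 10 members in the libraries numbered 1, where it was higher for 43.9% of all genes. It was higher for 8 of 10 members in those numbered 2, against 40.2% of all genes. It was lower for 10 of 10 in those numbered 3, against 47.5% of all genes. Tubb3 shows the pattern, with AAV-shbrpf1 higher by 20.4% in pair 1 and by 4.35% in pair 2 and different by -16.1% in pair 3. Tuba1a differed by 1.38%, 9.0% and -13.5% in the same order. No member moved the same way in 3 of 3 pairs, which 18.4% of all genes did. Most members moved together within a pair, so these counts are not 10 independent observations. The FPKM sum of the whole library was likewise higher with AAV-shbrpf1 in pairs 1 and 2 and lower in pair 3. It was 295355, 318393 and 286439 in AAV-scramble libraries 1 to 3, beside 315664, 351946 and 272134 in AAV-shbrpf1 libraries 1 to 3. The counts were taken on the deposited scale, and the part of the library sum in them was not tested.

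**Figure D3:**
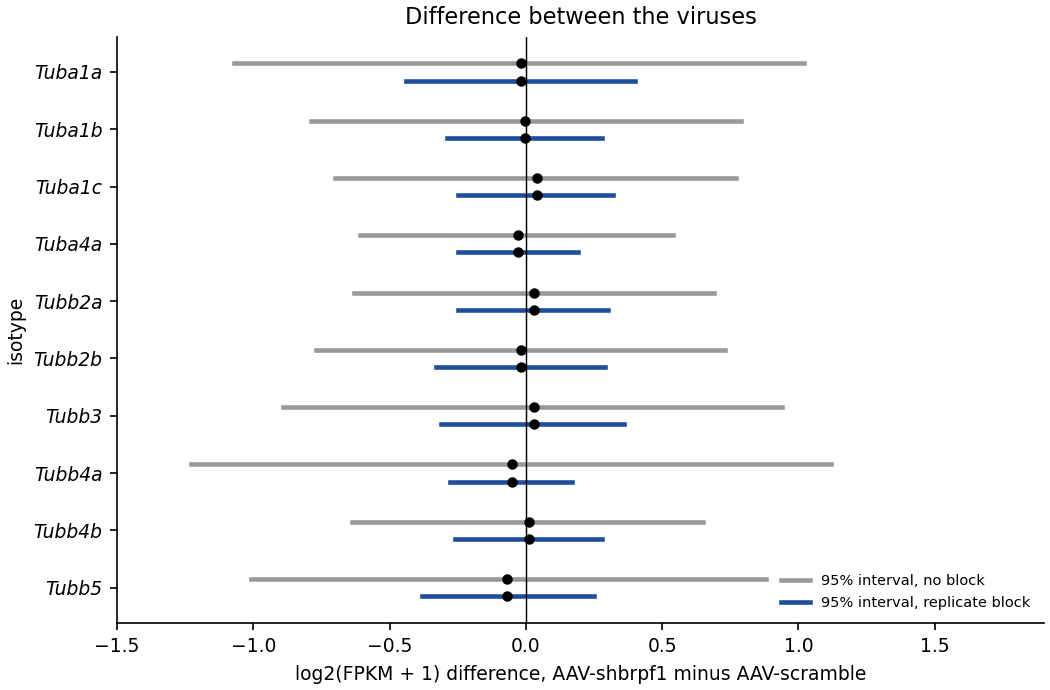
Log2 difference in FPKM + 1 between AAV-shbrpf1 and AAV-scramble for each tubulin gene: points are the limma estimates, grey lines their 95% intervals without the library number as a block and blue lines those with it. All 10 blue intervals include 0 and are narrower than the grey ones, for Tubb4a -0.28 to 0.17 against -1.23 to 1.12.

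The isotype shares did not separate the viruses either. The mean Tuba1a share was 83.3% ± 0.780 (SD, n = 3) with AAV-scramble and 83.1% ± 0.750 (SD, n = 3) with AAV-shbrpf1, and the exact 2-sided permutation p was 0.6. It was lower with AAV-shbrpf1 in 3 of 3 pairs, by 0.278 points on average, and the exact sign-flip permutation p was 0.25, the smallest that 3 pairs allow. The largest difference between group means was that of Tubb5, at -0.595 points. Over the 10 shares the lowest exact permutation p was 0.5, where 3 against 3 cannot go below 0.1, and the groups overlapped for all 10. Among the 3 beta genes whose sequence is almost unshared, Tubb3 made up 47.7%, 43.5% and 47.4% of the sum of Tubb3, Tubb4a and Tubb5 with AAV-scramble and 50.2%, 45.4% and 47.8% with AAV-shbrpf1. Tubb3 was higher with AAV-shbrpf1 in 3 of 3 pairs, by 1.57 points on average, and Tubb5 lower in 3 of 3, with a mean difference of -1.10 points. The exact permutation p between the groups was 0.4 for Tubb3 and 0.5 for Tubb5, and the exact sign-flip permutation p over pairs was 0.25 for each, the smallest that 3 pairs allow, so the design cannot place these paired differences past the threshold.

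The library numbers separated most members, where the viruses did not. Since the meaning of the number is not stated, the comparison below describes libraries and not a condition. In a limma F test across the 3 numbers, with the virus in the model, 8 of 10 members were called, beside 69.4% of all genes, so that being called is not particular to tubulins. Tubb4a had the lowest adjusted p in limma (0.00227), and Tubb2a (0.6685) and Tubb2b (0.195) were the members not called.

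Most members were higher in numbers 2 and 3 than in number 1. The median log2 difference of number 2 minus number 1 was 0.68 over the members and -0.25 over all genes, and that of number 3 minus number 1 was 0.41 and -0.01. Between numbers 2 and 1 Tubb4a differed most on the deposited scale, being higher by 1.46 in number 2. It was higher by 0.65 in number 3 than in number 1. Tubb5 was higher by 0.93 and 0.75, Tubb3 by 0.86 and 0.65, and Tuba1a by 0.78 and 0.55. Both libraries numbered 1 lay below the other 4 for 7 members, all but Tuba4a, Tubb2a and Tubb2b, against 23.5% of all genes. The values of Tubb2a (0.11 and -0.01) and Tubb2b (0.04 and 0.32) were small and were not called.

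These differences depend on the scale of the whole library. With every library set to the same FPKM sum, the median of number 2 minus number 1 over all genes was -0.34, and after quantile normalization it was 0.03. Tuba1a, Tuba1b, Tuba1c, Tubb3, Tubb4a, Tubb4b and Tubb5 were higher in numbers 2 and 3 than in number 1 under all 3 scalings. After quantile normalization Tuba1a differed most from number 1, by 1.86 in number 2 and by 1.2 in number 3. Tubb4a then differed by 1.16 and 0.43. For number 2 minus number 1, Tubb2a turned from 0.11 to -0.03 and -0.16, and Tubb2b from 0.04 to -0.09 and 0.49. For number 3 minus number 1, Tuba4a (-0.09, 0.04 and -0.12) and Tubb2a (-0.01, 0.12 and -0.28) turned as well. Between numbers 2 and 3 the signs of Tuba1a, Tubb2a, Tubb3, Tubb4b and Tubb5 turned with every library set to the same sum, and that of Tubb2b after quantile normalization. Number 3 minus number 2 stayed below 0 for Tubb4a, at -0.80, -0.54 and -0.73.

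The calls also lean on few libraries. Without AAV-scramble library 1, or without both libraries numbered 1, Tubb4a was the only member called, beside 37.7% and 31.8% of all genes. Without AAV-shbrpf1 library 1, Tubb3, Tubb4a and Tubb5 were called, beside 41.7% of all genes. Without AAV-shbrpf1 library 2, 5 members and 61.1% of all genes were called. Without both libraries numbered 2 the members called were Tuba1c, Tubb3, Tubb4a and Tubb5, beside 39.0% of all genes. The share of all genes called fell in these fits too. Without both libraries numbered 1 it went from 69.4% to 31.8%, while the members called went from 8 of 10 to 1 of 10. Whether the loss was larger for tubulins than for other genes was not tested. Over every fit that left out a library or a number, Tubb4a had an adjusted p between 0.00069 and 0.0278 in limma.

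**Figure D4:**
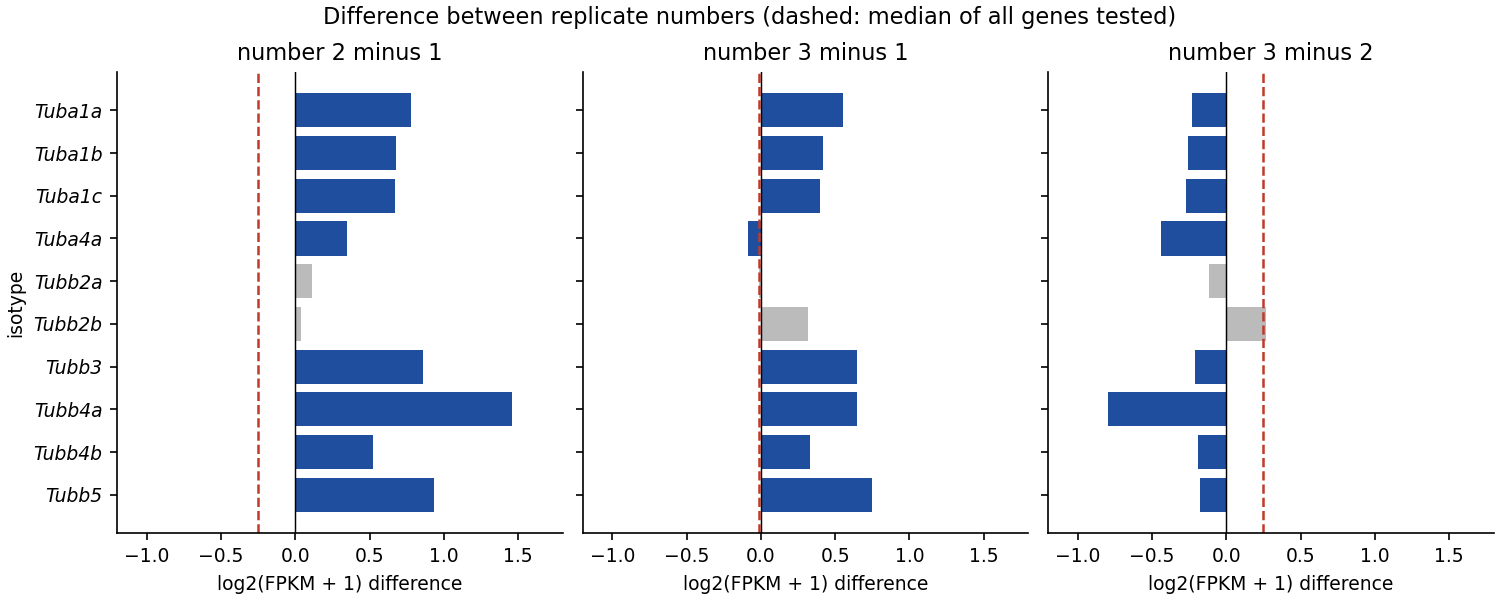
Log2 difference in FPKM + 1 of each tubulin gene (bars) between each 2 of the 3 library numbers, on the deposited scale and averaged over the viruses; blue bars are members called in the F test, grey bars those not called, and the dashed line is the median of all genes tested. Tubb4a has the longest bar, 1.46 for number 2 minus number 1, where Tubb2a (0.11) and Tubb2b (0.04) lie near 0 and change sign with the scaling, as do most bars of number 3 minus number 2.

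Other measures moved with the number, and their part in the tubulin differences was not tested. Summed markers of radial glia and progenitors were at 833 to 874 FPKM in the libraries numbered 1, at 242 to 269 FPKM in those numbered 2 and at 706 to 709.7 FPKM in those numbered 3. Most of that sum was Fabp7, a fatty acid binding protein of radial glia, with means of 744, 178 and 575 FPKM for numbers 1 to 3. Other progenitor markers had other orders: the means were 36.4, 24.9 and 56.8 FPKM for Sox2 and 4.545, 9.175 and 10.4 FPKM for Hes5. All 8 general neuron markers were called across the numbers, 3 higher and 5 lower in number 2 than in number 1, although their sum stayed between 495 and 579 FPKM. Syp, a protein of synaptic vesicles, had means of 158, 289.5 and 151.5 FPKM, and Snap25, a part of the vesicle fusion machinery, of 101 (number 1), 43.3 and 38.1 FPKM. Oligodendrocyte markers summed to 124 to 142, 215 to 229 and 276 to 290.1 FPKM, with 5 higher and 3 lower in number 2 among the 8 called, and immature neuron markers to 265 to 268, 179.8 to 192 and 356 FPKM. The immature neuron markers differed in order. Sox4 had means of 54.6, 54.5 and 174 FPKM for numbers 1 to 3, and Stmn2 of 156, 109 and 91.5 FPKM. Astrocyte markers summed to 182.5 to 192, 205.9 to 206.1 and 285 to 311 FPKM, with 2 higher and 4 lower in number 2 among the 6 called. Cycling-cell markers summed to 30.7 to 36.8, 15.2 to 16.3 and 30.6 to 31.5 FPKM. Fibroblast markers summed to 27.4 to 48.8, 10.2 to 10.4 and 16.4 to 19.1 FPKM. Nearly all of the fibroblast sum for numbers 2 and 3 was Pdgfra, which is also among the oligodendrocyte markers. Pdgfra had means of 12.2, 10.04 and 17.23 FPKM for numbers 1 to 3. The other fibroblast markers, Col1a1, Col1a2, Col3a1, Dcn and Lum, were below 1 FPKM in every library numbered 2 or 3. In such bulk libraries, fewer cells of a type and less RNA per cell cannot be told apart. Reads at ribosomal RNA loci took 5.33% and 8.33% in the libraries numbered 2, against 1.5% to 2.64% in the other 4. Mitochondrial transcripts took 5.60% and 6.09% of fragments for number 1, 1.796% and 1.34% for number 2, and 4.03% and 3.71% for number 3.

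The shares followed the number as well. The Tubb2b share differed by 9.59 percentage points between the highest and the lowest number mean, the Tubb2a share by 6.125, the Tubb4a share by 5.44 and the Tubb3 share by 5.19. The largest difference between the viruses within a pair was 1.60 points, for Tubb3 in pair 1. In 9 of 10 shares, all but that of Tuba1c, the range between numbers exceeded the largest difference within a pair. Because Tubb2a and Tubb2b have shared sequence, shares were also taken among the 3 low-sharing beta genes, which cannot check the Tubb2a and Tubb2b shares themselves. Tubb4a made up 22.7% and 21.5% of the sum of these 3 for number 2, against 15% to 16.8% in the other 4 libraries. Tubb3 made up 47.7% and 50.2% for number 1, against 43.5% and 45.4% for number 2. Tubb5 made up 35.5% and 34.6% for number 1, against 33.8% and 33.1% for number 2. For number 3 the values were 47.4% and 47.8% for Tubb3 and 37.6% and 35.9% for Tubb5. Since this sum leaves out Tubb2a and Tubb2b, it cannot check the low class shares of Tubb3 and Tubb5 in number 1 either.

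Genes that act on tubulin were described from 4 lists. None of their tested genes was called between the viruses in limma, with or without the block. Across the library numbers the share called can be read against the 69.4% of all genes.

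Of 10 further tubulin genes, 4 passed the filter on low values, and all 4 were called across the numbers. Tubg1, the gamma-tubulin of the nucleating ring complex, was higher by 0.96 on the log2 scale in number 2 than in number 1. It was at 9.11, 21.6 and 15.5 FPKM in AAV-scramble libraries 1 to 3, beside 12.1, 21.2 and 13.2 FPKM in AAV-shbrpf1 libraries 1 to 3. Tubg2 differed in the same direction (0.68). Tubb6, a beta-tubulin more typical of non-neuronal cells, and Tubd1, the delta-tubulin of centrioles, had log2 differences of -0.30 and -0.73. Tubb6 never exceeded 5.86 FPKM, and Tuba3b and Tubb1 were listed at 0 in every library.

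Tubulin folding and autoregulation includes the ring-shaped CCT chaperonin, which folds new tubulin, its helper prefoldin and the cofactors that join alpha to beta. Of 22 genes, 14 were called across the numbers (63.6%), 3 higher and 11 lower in number 2 than in number 1, with a median of -0.42. Cct4, a subunit of the chaperonin, was at 32.4, 12.0 and 23.0 FPKM in AAV-scramble libraries 1 to 3, beside 30.0, 12.5 and 22.3 FPKM in AAV-shbrpf1 libraries 1 to 3. Its log2 difference between numbers 2 and 1 was -1.28. Cct6a, another subunit, differed by -1.17, and Cct2, the most abundant one, by -0.40. Pfdn5, a prefoldin subunit, and Tbcd, a cofactor that handles beta-tubulin, were higher by 0.48 and 0.46. In the libraries numbered 2 these 3 chaperonin messages were at their lowest, and every tubulin member but Tubb2b and Tubb5 was at its highest. Cct7, another subunit, was not called, and its means were 26.6, 31.7 and 31.2 FPKM for numbers 1 to 3.

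Among the enzymes that modify tubulin, 12 of 17 tested genes of 21 listed were called (70.6%), 7 higher and 5 lower in number 2 than in number 1. Atat1, which acetylates alpha-tubulin inside the microtubule, was at 23.3, 66.3 and 39.3 FPKM in AAV-scramble libraries 1 to 3, beside 24.8, 73.1 and 39.0 FPKM in AAV-shbrpf1 libraries 1 to 3. Number 2 exceeded number 1 by 1.5 on the log2 scale. Sirt2, which removes that acetyl group, was higher by 1.14, and Ttll1, a polyglutamylase of the tails, by 0.60. Ttll7, a polyglutamylase of beta-tubulin tails, and Agtpbp1, which trims glutamate from the tails, had differences of -0.88 and -0.84.

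Of 31 genes for microtubule-associated and dynamics proteins, 24 were called (77.4%), 10 higher and 14 lower in number 2 than in number 1. Map1a, a structural protein of mature axons and dendrites, was at 59.9, 326 and 161 FPKM in AAV-scramble libraries 1 to 3, beside 64.1, 341 and 161 FPKM in AAV-shbrpf1 libraries 1 to 3. Its log2 difference of 2.41 between numbers 2 and 1 was larger than that of any tubulin member. Map6, which stabilizes microtubules against cold, was higher by 1.60. Dcx, the doublecortin of migrating neurons, had a difference of -1.54, and Ckap5, a microtubule polymerase, of -1.35. Stmn1 and Stmn3, which bind free tubulin dimers, were not called in limma (adjusted p = 0.319 and 0.113), with differences of 0.20 and 0.40.

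Likeness of pattern was measured as Pearson's r of log2(FPKM + 1) over the 6 libraries, among 3936 genes. Across 6 libraries of 3 numbers this describes a shared order of libraries and little else. The genes most like Tuba1a were Tmem229b (r = 0.998), Tmem160 (0.997) and Cotl1 (0.997). Those most like Tubb2b were Pea15a (0.987), Chtop (0.979) and Rpl3 (0.978). Between members, Tuba1a and Tuba1b, which share much of their sequence, had r = 0.99, and so had Tubb3 and Tubb5, which do not. Tubb2b had r from -0.37 to 0.50 with the other members.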

How the data were processed

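The deposited table gives 1 value per gene and library. Its values were read as FPKM that the authors computed, because values of single-exon genes are whole multiples of 1 fragment per gene length. The submitters' processing notes name FastQC, StringTie, DESeq2 and mm9, with no role or order; gene IDs and coordinates were those of GENCODE M21 on GRCm38 (55154 of 55335 IDs found, 54899 with the same start and end). The sources used here do not state other settings of the authors' alignment and counting.

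Genes averaging 1 FPKM or more in either virus group were tested on log2(FPKM + 1) with limma 3.58.1 (R 4.3.3), with a mean-variance trend, all 6 libraries in 1 fit, Benjamini-Hochberg over 12792 genes and a threshold of 0.05. Fold changes on that scale understate changes of low genes. Shares were tested by exact permutation. Same-numbered libraries correlated in their deviations from the group means (r = 0.866, 0.829 and 0.574, with different numbers at most 0.002). Deviations within a group cancel out for each gene, so the low values between different numbers are partly built in. The numbers were taken to pair the samples, a pairing that comes from the data and not from the labels.

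The members and lists were chosen with earlier results of these data known. All 10 members were named; of each list, the 2 most abundant genes and up to 2 called per direction with the smallest p; for likeness, the 3 highest correlations among genes of mean at least 10 FPKM. Alternatives were the pseudocount, the filter, 2 scalings, the replicate block (the blocked values are given with the results), and each library or number left out. The fit across numbers without each number, and the shares among 3 low-sharing beta genes, were added after seeing the data. The tail sequences of Tuba1a, Tuba1b and Tuba1c are not reported here.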

Additional observations from a re-analysis of the deposited data

How the results depend on the processing

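No member was called between the viruses with a pseudocount of 0.1, no filter on low values, either other scaling, the replicate block, or any library or number left out. The member log2 differences were near 0, and their sign turned in 42 of 140 alternatives. Quantile normalization gave 0.05 for Tuba1a, 0.03 for Tuba1b and 0.15 for Tubb2b, and the same sum in every library gave -0.02 for Tuba1c, -0.03 for Tubb2a, -0.03 for Tubb3 and -0.05 for Tubb4b. With 1 library left out, the differences ran from -0.25 to 0.19 for Tuba1a, -0.20 to 0.16 for Tuba1b, -0.19 to 0.24 for Tuba1c, -0.18 to 0.09 for Tuba4a, -0.03 to 0.08 for Tubb2a, -0.11 to 0.12 for Tubb2b, -0.29 to 0.22 for Tubb3, -0.43 to 0.33 for Tubb4a, -0.18 to 0.11 for Tubb4b and -0.40 to 0.16 for Tubb5. In all, 2 libraries a number and 3 a virus group limit these results, and a lone library in an arm was assumed to vary like the others.

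The replicate block changed no call between the viruses (0 members). Under the block, leaving out number 1 turned Tubb2a (-0.01), Tubb3 (-0.10) and Tubb4b (-0.08); leaving out number 2 turned Tuba1c (-0.10), Tubb2a (-0.002) and Tubb4b (-0.03); and leaving out number 3 turned Tuba1a (0.07), Tuba1b (0.11), Tuba4a (0.04), Tubb2b (0.06) and Tubb5 (0.06). Under the pairing, the Tuba1a share was the 1 share of 10 with the same direction in 3 of 3 pairs. With libraries left out, 0 to 2 shares separated the groups; the 2 were Tuba1c and Tubb2a, both higher with AAV-shbrpf1 when AAV-scramble library 1 was left out. The 83 alternative share differences moved by less than the larger of the 2 group SDs, yet signs turned with 1 library left out: the ranges in points were -3.22 to 2.59 for Tubb2b, -1.19 to 2.74 for Tubb2a, -2.14 to 0.541 for Tubb5, -1.75 to 1.496 for Tubb4a, -1.23 to 1.66 for Tubb3 and -0.726 to 0.120 for Tuba1a.

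Between library numbers, 8 members were called with a pseudocount of 0.1 (67.5% of genes) and with the same sum in every library (70.3%), where Tubb2b was gained and Tuba4a lost. Quantile normalization left 5 (Tuba1a, Tuba4a, Tubb3, Tubb4a and Tubb5) beside 67.3% of genes, and no filter left 2 (Tubb4a and Tubb5) beside 23.2% of genes; the cause was not tested. With libraries or numbers left out, 1 to 8 were called, beside 31.8% to 68.0% of genes.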
